A study of Homo sapiens with 4 samples.

Results

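N4-acetylcytidine (ac4C) is an acetyl group carried on cytidine in RNA, and NAT10 is the acetyltransferase that places it on messenger RNA. NAT10 is known to acetylate RNA within C-rich sequence, and ac4C in mRNA has been tied to transcript stability and translation. The peaks described here are differential ac4C peaks that the authors assigned to the 3'-UTR (the untranslated part after the stop codon). For each of them the authors' deposited table lists no CXXCXXCXXCXX site (C stands for cytidine, X for a base of any kind). Whether they hold other C-rich sequence was not examined.

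These site-free peaks were chosen by 2 columns of the table of differential peaks, the region class and the number of sites, and the table itself was selected on the contrast between the conditions. The rule kept 684 peaks on 643 genes, which is 43.4% of the 1575 differential 3'-UTR peaks and 24.4% of all 2807 differential peaks. Of the other 3'-UTR peaks, 350 had 1 site and 541 had 2 or more. Since the table holds only peaks that differed between conditions, the differences between conditions below are those the peaks were chosen for and carry no test.

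The data come from FaDu, an established line of hypopharyngeal squamous cell carcinoma. Cells stably carrying the control hairpin (shNC) were compared with cells carrying a hairpin against NAT10 (shNAT10), without further treatment named in the labels. Each condition had 1 ac4C immunoprecipitate (IP) and 1 input library, so 4 libraries in all and no replicate. The methods describe lentiviral pLKO.1 hairpins and puromycin selection, and the labels do not say which NAT10 hairpin was used. The files hold peaks and no transcript levels or read totals, so the knockdown, the identity of the cells and the depth of the libraries could not be checked from them.

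Each condition has its own list of peaks, 6403 in shNC and 6417 in shNAT10, and each list gives a fold enrichment (the ratio of IP to input within the peak) and a p-value. A site-free peak was called listed in a condition when it overlapped a peak of that list on the same strand by at least 1 bp of exon. Of the 684 site-free peaks, 284 were listed in shNC only (41.5%), 157 in both conditions (23.0%) and 243 in shNAT10 only (35.5%). Over all 2807 differential peaks these shares were 32.2% in shNC only, 40.4% in both and 27.3% in shNAT10 only. The contrast between conditions chose all of these peaks, so the shares are a description and nothing is read from them. Among the 350 3'-UTR peaks with 1 site, 32.6% were listed in both conditions, and among the 541 with 2 or more sites the share was 56.7%.

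Length moved with this split. A longer peak has more chances to hold a site, so length goes with the rule. The shares without a site by length are therefore a description. The site-free peaks had a median exonic length of 210 nt (quartiles 180 and 271, range 117 to 808), against 240 nt for peaks with 1 site and 330 nt for peaks with 2 or more. No site was listed in 55.9% of the 3'-UTR peaks of 150 to 250 nt (426 of 762, 95% Wilson interval 52.4 to 59.4), in 35.0% of those above 250 and up to 400 nt (163 of 466) and in 18.8% of those over 400 nt (52 of 276, 14.7 to 23.9). Within the site-free peaks, those listed in a single condition had a median of 181 nt on either side and those listed in both had 330 nt. A differential peak can be the union of a shNC and a shNAT10 peak, and 35 of the 157 peaks listed in both were longer than each of their list peaks. The list peaks themselves also differed, with a median of 270 nt in either list for peaks found in both and of 210 nt and 211 nt for those in shNC only and shNAT10 only.

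Within ranges of length the 3 classes lay closer together, with the lowest share in both for site-free peaks in each range below. Length was not matched within a range. Between 150 and 250 nt its median was 181 nt for site-free peaks and 210 nt for peaks with 2 or more sites. Whether the remaining differences go with length was not tested. Between 150 and 250 nt, 35 of 426 site-free peaks were listed in both conditions (8.22%, 95% Wilson interval 5.97 to 11.2), against 19 of 179 with 1 site (10.6%, 6.90 to 16) and 20 of 157 with 2 or more (12.7%, 8.40 to 18.9). Above 250 and up to 400 nt the shares were 81 of 163 (49.7%, 42.1 to 57.3), 60 of 110 (54.5%) and 119 of 193 (61.7%, 54.6 to 68.2). In that range shNAT10 only held 25.8% of site-free peaks, 23.6% of peaks with 1 site and 13.5% of peaks with 2 or more. The shares in shNC only were 24.5%, 21.8% and 24.9%. Over 400 nt the shares in both were 41 of 52 (78.8%, 66.0 to 87.8), 34 of 41 (82.9%) and 168 of 183 (91.8%). The intervals count peaks only and say nothing of other cultures.

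**Figure D1:**
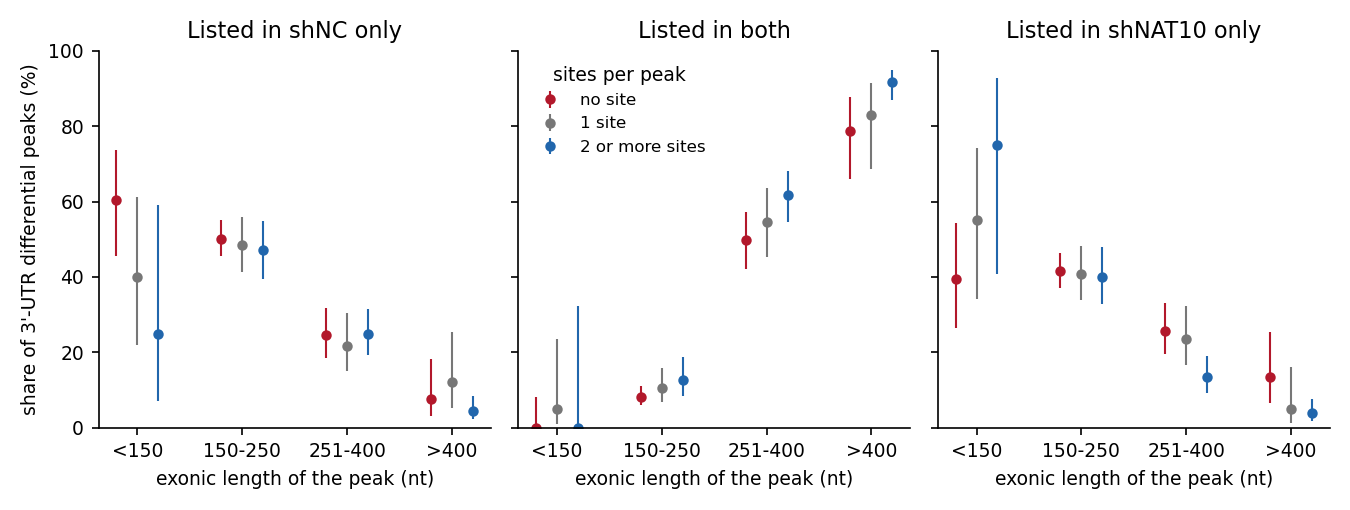
Share of differential 3'-UTR peaks listed in shNC only, in both conditions and in shNAT10 only (y axis, %) by exonic length (x axis, nt), for peaks with no site (red), 1 site (grey) and 2 or more sites (blue), with 95% Wilson intervals over peaks. The share listed in both rises with length in each class, from 8.22% to 78.8% of site-free peaks between 150 to 250 nt and over 400 nt.

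The site-free peaks also differed from the others in where they lay on the gene, a measure the choice did not use directly. The distance from the downstream edge of the peak to the end of its RefSeq gene (GRCh38.p14) could be taken for 667 of the 684 peaks. Its median was 555 nt for site-free peaks (95% order-statistic interval 442 to 712), 267 nt for peaks with 1 site (180 to 386) and 120 nt for peaks with 2 or more (90 to 150). The edge lay within 100 nt of the gene end, to either side, in 167 of 667 site-free peaks (25%), against 116 of 342 with 1 site (33.9%) and 253 of 529 with 2 or more (47.8%). The difference from peaks with 2 or more sites was -22.8 percentage points (Newcombe interval -28.1 to -17.3) and that from peaks with 1 site was -8.88 points (-14.9 to -2.97). Between 150 and 250 nt of length, the share within 100 nt was 21.2% for site-free peaks and 21.8% for peaks with 2 or more sites, a difference of -0.590 points (-8.59 to 6.53). Peaks of that length with 1 site reached 30.3%, and the difference of the site-free peaks from them was -9.08 points (-17.1 to -1.50). With the wider limit, 47.0% of site-free peaks and 58.3% of peaks with 2 or more sites of that length ended within 500 nt of the gene end, a difference of -11.3 points (-20.2 to -2.14).

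**Figure D2:**
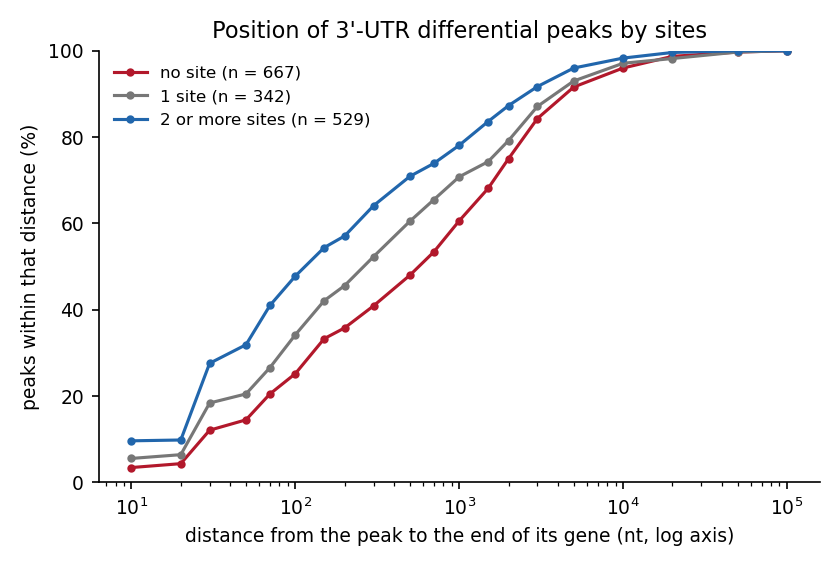
Share of differential 3'-UTR peaks (y axis, %) whose downstream edge lies within a given distance of the end of the RefSeq gene (x axis, nt, log axis), for peaks with no site (red, n = 667), 1 site (grey, n = 342) and 2 or more sites (blue, n = 529). Peaks that run past the gene end are counted from the left edge; the red curve lies below the others up to 5000 nt, with 25.2% of site-free peaks at 100 nt against 47.8% of peaks with 2 or more sites.

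Chromosome 19, which is rich in genes, held a smaller share of site-free peaks than of peaks with sites. It carried 35 of 684 (5.12%, 95% Wilson interval 3.70 to 7.03), against 29 of 350 peaks with 1 site (8.29%), 87 of 541 with 2 or more (16.1%) and 11.3% of all differential peaks. The rule rests on sequence and base composition was not examined, so whether this share follows from the rule was not tested. The difference from peaks with 2 or more sites was -11.0 points (Newcombe interval -14.6 to -7.53) and was -9.32 points (-15.8 to -4.13) between 150 and 250 nt of length. Chromosome 1 held the most site-free peaks, 78 (11.4%), and its share was 10.7% among peaks with 2 or more sites. Peaks that ran over several exons were also fewer, 45 of 684 (6.58%) against 95 of 541 (17.6%). Between 150 and 250 nt of length that difference was -2.51 points (-7.29 to 0.670). Each peak has a single region class, so how much of a peak over several exons lies outside the 3'-UTR was not examined. In all 90 differences of shares were computed, and their intervals are not adjusted for that number.

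The largest fold enrichments in the shNC list alone were on genes of transcription, nucleotide metabolism, translation and splicing. ZNF32, a C2H2 zinc finger factor, had a fold enrichment of 194 in shNC (chromosome 10, 43643889 to 43644158, minus strand, GRCh38, 27 nt before the gene end) and no overlapping shNAT10 peak. DUT, the enzyme that removes dUTP so that uracil stays out of DNA, had 146, and EIF1AX, an initiation factor that takes part in start codon scanning, had 134. RBFOX2, a splicing regulator, had 99.5, and MUM1 (PWWP3A in RefSeq), a PWWP domain protein, had 95.3. DUT, EIF1AX and MUM1 each had a shNAT10 peak elsewhere on the gene, while ZNF32 and RBFOX2 had none.

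In the shNAT10 list alone, the largest value was shared by neighbours on chromosome 22. PDXP (37666547 to 37666815) and SH3BP1 (37666543 to 37666812), a pyridoxal phosphatase and a GTPase-activating protein, lay over each other on the plus strand and both had a fold enrichment of 241. This signal cannot be assigned to either gene. HMGB3, a high mobility group protein that binds DNA, had 171. CEBPD, a leucine zipper transcription factor, had 150, and DHX33, an RNA helicase, had 121. None of these 5 peaks overlapped a shNC peak, and of the 5 genes HMGB3 alone had a shNC peak elsewhere.

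Most of these leading values had a common form. In each list, some peaks had the weakest p-value of the whole list for their fold enrichment, so that no peak with an equal or higher fold enrichment had a weaker p-value (within 1%). They made up 27.4% of the shNC list and 27.6% of the shNAT10 list and form the outer edge of each list in a plot of fold enrichment against p-value, here called the weakest-p line. Below a fold enrichment of 20, 99.9% of the peaks on this line were whole multiples of 0.691 in shNC and of 0.845 in shNAT10 (within 0.06), against 31.0% and 29.7% of the peaks off it. On the line, fold enrichment thus moved in equal steps. All 5 shNC peaks above, from ZNF32 to MUM1, lay on it, as did PDXP, SH3BP1, HMGB3 and DHX33 but not CEBPD. They were chosen by high fold enrichment, where few peaks remain to compare, so a place on the line is partly set by that choice.

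Of the site-free peaks, 152 had a list peak on the line (22.2%, 95% Wilson interval 19.3 to 25.5), against 59 of 350 with 1 site (16.9%) and 59 of 541 with 2 or more (10.9%, 8.55 to 13.8). They comprised 72 of the 284 in shNC only (25.4%), 67 of the 243 in shNAT10 only (27.6%) and 13 of the 157 in both (8.28%). Without them, 39.8% of the remaining peaks were listed in shNC only, 27.1% in both and 33.1% in shNAT10 only. What sets the line was not tested, since the files hold no read counts. It cannot be told from the files whether a fold enrichment on the line is a ratio of measured IP and input levels or a ratio to a minimum set for the input, so the values of 194 for ZNF32 and 241 for PDXP, others on the line and the ratios formed from them may not be exact sizes.

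**Figure D3:**
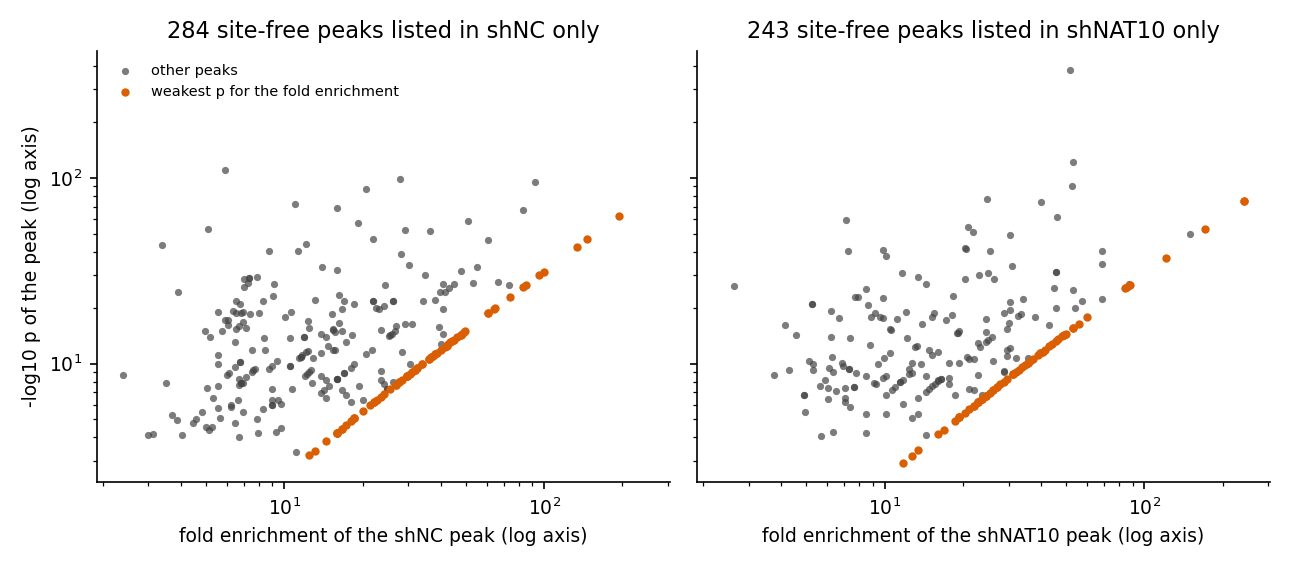
Fold enrichment (x axis, log axis) against -log10 p (y axis, log axis) of the list peak for the 284 site-free peaks listed in shNC only (left) and the 243 listed in shNAT10 only (right). Orange points have the weakest p-value of their list for their fold enrichment; they form 1 line in each panel, with 72 points on the left and 67 on the right, and include the largest value of each panel, 194 and 241.

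Single-list peaks had weaker p-values than those in both. The median -log10 p of the list peak was 11.4 for peaks in shNC only and 10.7 for those in shNAT10 only, against 30.3 in the shNC list and 32.4 in the shNAT10 list for peaks in both. Median fold enrichments were not lower, at 15.9 for shNC only and 19.4 for shNAT10 only, against 14.8 (shNC) and 15.4 (shNAT10) for peaks in both. A gene with a single-list peak often had some peak in the other condition. Of the 284 peaks in shNC only, 86 lay on a gene with a shNAT10 peak elsewhere (30.3%, 95% Wilson interval 25.2 to 35.9), and of the 243 in shNAT10 only, 75 lay on a gene with a shNC peak elsewhere (30.9%, 25.4 to 36.9).

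For the 157 site-free peaks listed in both conditions, the ratio of shNAT10 to shNC fold enrichment could be formed. Its median on the log2 scale was -0.04, with quartiles of -1.62 and 1.49 and a range from -5.00 to 4.92. At least 2-fold lower values in shNAT10 were found for 57 peaks (36.3%) and at least 2-fold higher values for 58 (36.9%). Over all 1135 differential peaks in both lists, the shares were 33.9% lower and 28.6% higher. Lower and higher values were thus about equally frequent among the site-free peaks, with 80 ratios below 1 and 77 above. How the libraries were scaled to each other is not given in the sources used here, and the median log2 ratio over all 3308 shNC peaks that overlapped a shNAT10 peak was -0.05.

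The 5 lowest ratios differed by more than 10-fold between the lists. PBK, a mitotic kinase, had a fold enrichment of 189 in shNC and 5.92 in shNAT10, a log2 ratio of -5.00. SDCBP, the adaptor syntenin-1, had 110 and 4.84, a log2 ratio of -4.51. CABP7, a calcium-binding protein, had 110 and 7.04, RSAD1 had 64.2 and 4.51, and TCF3, a basic helix-loop-helix transcription factor, had 52.1 and 4.56 (chromosome 19, 1610967 to 1611386). The shNC peaks of PBK and CABP7 lay on the line of weakest p-values, and those of SDCBP, RSAD1 and TCF3 did not. The shNAT10 peaks behind these ratios had a -log10 p from 2.78 (RSAD1) to 8.02 (SDCBP), against a median of 32.4 for shNAT10 peaks of site-free peaks in both lists. PBK overlapped 2 shNAT10 peaks, and its value is that of the peak with the largest overlap.

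At the other end, MSX1, a homeobox transcription factor, had 7.94 in shNC and 241 in shNAT10, a log2 ratio of 4.92 (chromosome 4, 4863458 to 4863817). ITPK1, an inositol phosphate kinase, had 3.91 and 56.3, a log2 ratio of 3.85. The RNA-binding proteins RBMX and HNRNPA3 had 5.20 and 73.5, and 7.70 and 103. HMGB1, the abundant nuclear high mobility group protein, had 2.86 and 32.1. The shNAT10 peaks of MSX1, RBMX and HMGB1 lay on the line, and those of ITPK1 and HNRNPA3 did not. The shNC peaks behind these 5 ratios had a -log10 p from 2.27 (HMGB1) and 4.04 (MSX1) up to 28.8 (RBMX). RBMX and HNRNPA3 each had a further site-free peak, in shNC only for RBMX (12.2) and in shNAT10 only for HNRNPA3 (10.5).

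The 5 peaks in both lists with the largest sum of the -log10 p of their shNC and shNAT10 peaks were on EIF3I, PRDX1, PABPC1, RPL13 and IGFBP3. EIF3I came first through its shNC peak alone, since its -log10 p in shNAT10 was 39. PABPC1, the cytoplasmic poly(A)-binding protein, had the longest of all site-free peaks (808 nt over 3 exonic blocks), with a fold enrichment of 239 in shNC and 67.4 in shNAT10. EIF3I, a subunit of initiation factor eIF3, had 34.8 in shNC, where its p-value was listed as 0, and 5.39 in shNAT10. IGFBP3, a secreted binding protein of insulin-like growth factors, had 84.3 and 19.2. PRDX1, a peroxiredoxin that removes peroxide, had 26.7 and 55.8 over 4 exonic blocks, the most of any site-free peak and shared with FKBP3 and NOP58 among 5 such peaks. RPL13, a protein of the large ribosomal subunit, had 19.5 and 17.7, a log2 ratio of -0.14, and is in the table of differential peaks all the same. None of these 5 peaks lay on the line in either list, which their choice by strong p-values makes likely.

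**Figure D4:**
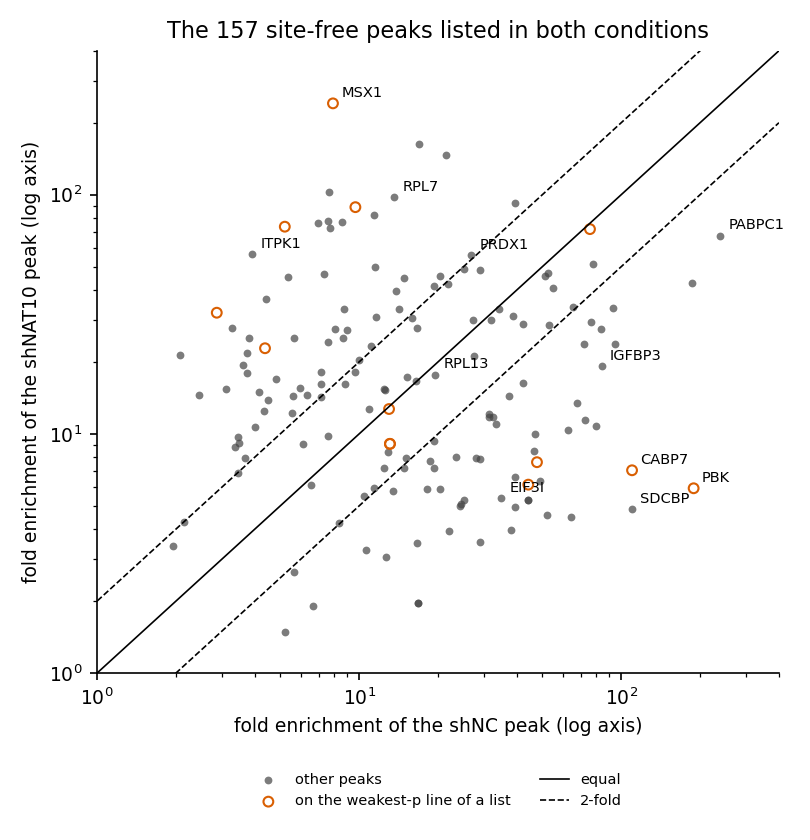
Fold enrichment in shNC (x axis, log axis) and in shNAT10 (y axis, log axis) of the 157 site-free peaks listed in both conditions; the solid line marks equal values, the dashed lines a 2-fold difference, and orange rings the 13 peaks on the weakest-p line of a list. Peaks lie on both sides of the solid line, 57 at least 2-fold lower and 58 at least 2-fold higher in shNAT10; the other 42 lie between the dashed lines.

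Genes were next read in 14 groups set by symbol, of which 13 had a site-free peak. The groups hold 169 of the 684 peaks. Members of a group are counted by list, beside the shares over all site-free peaks given above (41.5% shNC only, 23.0% both and 35.5% shNAT10 only). No group was tested. Of the values given by group below, some not yet named also lay on the weakest-p line and may not be exact sizes. In shNC they were those of USP8, TRIM65, TOMM20, SMARCA5, LAMC1, MAPK14, DUSP12, IL20RB and the single-list peak of SMARCC1. In shNAT10 they were those of CNOT7, MRPS28, BUB1B, ZNF207, SLC35A1, ATP6V1G1, COL27A1 and both KLF6 peaks. The shNC and shNAT10 peaks of KDM5B and the shNC peak of HMGB3 lay on it too.

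Translation and RNA processing was the largest group, with 36 site-free peaks on 32 genes. Of these, 25 were listed in both conditions (69.4%), 8 in shNC only and 3 in shNAT10 only. Among the 25 in both, 10 were at least 2-fold lower and 8 at least 2-fold higher in shNAT10. EIF3I and PABPC1 were on the lower side, and RPL7, a ribosomal protein, was on the higher side with 13.6 in shNC and 97.4 in shNAT10. The 8 in shNC only included EIF1AX (134), RBM25 (53.2), a splicing factor, CPSF7 (34.8), a subunit of a 3'-end cleavage factor, and EIF4B (7.09), which stimulates the eIF4A helicase. The 3 in shNAT10 only were DHX33 (121), CNOT7 (38.9), a deadenylase, and 1 of the HNRNPA3 peaks (10.5). The median length of the group's peaks was 285 nt and their median -log10 p in the stronger list was 45.1, against 210 nt and 14.8 over all site-free peaks. Over 250 nt, 19 of its 22 peaks were in both lists, against 122 of 215 among all site-free peaks.

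Ubiquitin, proteasome and COP9 signalosome genes, which mark proteins for breakdown or regulate the ligases that do so, had 19 site-free peaks on 19 genes and none in both lists. In shNC only there were 7, led by USP8, an endosomal deubiquitinase (85.0), TRIM65, a ubiquitin ligase (46.3), UBE2N, the conjugating enzyme of lysine-63 chains (12.4), and COPS4, a COP9 signalosome subunit (15.4, chromosome 4, 83075369 to 83075758). In shNAT10 only there were 12, led by CUL3, a cullin scaffold (52.8), UBB, a polyubiquitin gene (7.08), RNF11 (68.4) and RNF169 (17.7), both RING finger proteins. UBB belongs to a family of near-identical ubiquitin coding repeats, so its reads may be shared with other ubiquitin genes. The group's peaks had a median length of 181 nt and a median -log10 p of 8.67, below the 210 nt and 14.8 over all site-free peaks, and 17 of the 19 were of at most 250 nt. At most 250 nt, 35 of 469 site-free peaks were in both lists. Of the 20 peaks with sites on genes of this group, 10 were in both, close to the 47.3% of all 891 3'-UTR peaks with sites (421).

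Small GTPases, their regulators and vesicle traffic had 23 site-free peaks, 10 in shNC only, 2 in both and 11 in shNAT10 only. RHOA, a GTPase of the actin cytoskeleton, had 1 peak with 78.0 in shNC and 51.5 in shNAT10 and a neighbouring one counted as shNAT10 only that overlapped the same shNAT10 peak. In shNC only were RABGAP1, a Rab GTPase-activating protein (22.6), VAMP7, a SNARE of late endosomes (39.4), and the cargo receptors TMED2 (9.13) and TMED9 (8.29). TMED9 had a further peak in both lists with 4.83 in shNC and 16.9 in shNAT10. In shNAT10 only were VPS26A, a retromer subunit (19.4), ARHGAP35, a GTPase-activating protein (43.1), and AP3S2, a subunit of the AP-3 adaptor (5.27), whose peak also overlapped that of a readthrough gene.

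Nuclear-encoded mitochondrial genes had 16 site-free peaks, 7 in shNC only, 3 in both and 6 in shNAT10 only. NDUFB2, a complex I subunit (15.9), COX5A, a cytochrome c oxidase subunit (6.98), the import receptor TOMM20 (47.7) and MRPL16 of the mitochondrial ribosome (24.2) were in shNC only. NDUFB5 of complex I (21.8), MRPS28 (45.6) and MRPL48 (19) of the mitochondrial ribosome and the import receptor TOMM70 (13.1) were in shNAT10 only. Thus complex I, the ribosome and the import receptors each had peaks on either side. TIMM23, the inner membrane translocase (7.63 in shNC and 9.76 in shNAT10), and ATP5F1, an ATP synthase subunit (27.2 and 29.8), differed by less than 2-fold, and MRPS16 had 31.4 and 11.8.

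Chromatin regulators and histones had 15 site-free peaks on 12 genes, 9 in shNC only, 2 in both and 4 in shNAT10 only. The SWI/SNF and ISWI remodelling genes SMARCA5 (64.2), SMARCC1 (42.8) and SMARCA4 (6.34) and CBX1, a heterochromatin protein (16.2), were in shNC only. SMARCC1 had a further peak in both lists, with 16.9 in shNC and 163 in shNAT10, so the gene had values in both directions. HMGB1 was the other peak in both lists. In shNAT10 only were HMGB3 (171), the histone demethylase KDM5B (32.1) and the methyltransferase SETD6 (19.4), among others. HMGB3 and KDM5B each had a second peak in shNC only, with 33.8 and 38.0.

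Cell cycle genes had 12 site-free peaks, 4 in shNC only, 2 in both and 6 in shNAT10 only. MCM2, a subunit of the replicative helicase, had 92.5 in shNC only, over 539 nt. CCNE2, the cyclin of S phase entry (31.1), ANAPC7 of the anaphase-promoting complex (26.9) and the kinesin KIF20A (25.9) were also in shNC only. The peaks in both were MCM3 (19.3 and 7.18) and BUB3, a spindle checkpoint protein (38.0 and 3.97), each at least 2-fold lower in shNAT10. CDKN1A, the CDK inhibitor p21 (29.6), BUB1B (49.9), CDK10 (14.4) and CDK12 (35.5) were in shNAT10 only.

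Zinc finger and KLF/SP factors had 11 site-free peaks, 4 in shNC only, 2 in both and 5 in shNAT10 only. Beside ZNF32, the peaks in shNC only were on ZNF593 (16), ZNF664 (17.3) and ZBTB7A (9.44), a transcriptional repressor. ZNF410 (44.2 and 5.28) and ZNF770 (25.2 and 5.28) were lower in shNAT10 by more than 2-fold. KLF6, a Krüppel-like factor, had 2 peaks in shNAT10 only (28.7 and 22.8), beside ZNF500 (23.0) and ZNF207 (43.9). The ZNF410 peak lay over a differential peak of the gene AC005520.1.

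Transporters and pumps had 11 site-free peaks, 4 in shNC only, 3 in both and 4 in shNAT10 only. In shNC only were ATP2A2, the calcium pump of the endoplasmic reticulum (36.2), SLC12A4, a potassium-chloride cotransporter (39.7), SLC25A13, the mitochondrial aspartate-glutamate carrier (17.0), and SLC16A1, the lactate carrier MCT1 (12). In shNAT10 only were SLC2A1, the glucose carrier GLUT1 (14.8), SLC35A1 (31.3), SLC44A2 (32.1) and SLC38A1 (4.95). Both subunits of the proton pump V-ATPase were in each list, ATP6V0E1 with 62.8 in shNC and 10.4 in shNAT10 and ATP6V1G1 with 76.0 and 71.8. SLC20A1, a phosphate carrier, had 51.1 and 45.6.

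Epithelial adhesion, keratin and matrix genes had 10 site-free peaks, 1 in shNC only, 4 in both and 5 in shNAT10 only. Laminin chains build the basement membrane. LAMA5 had 65.3 in shNC and 33.8 in shNAT10, LAMB3 had 6.56 and 6.10, and LAMC1 had 15.9 in shNC only. CLDN1, a tight junction protein (38.0), KRT10, a keratin (24.9), and COL27A1, a fibrillar collagen (27.9), were in shNAT10 only. TIMP2, an inhibitor of metalloproteinases, had 1 peak in both lists (4.14 and 14.9) and another in shNAT10 only (8.45). S100A16, a calcium-binding protein, had 12.5 and 15.2.

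The smaller groups had between 3 and 6 site-free peaks each. In the MAP kinase group, MAPK14, the kinase p38 alpha (38.0), and the dual-specificity phosphatases DUSP14 (7.48) and DUSP12 (15.9) were in shNC only. Of the cytokine receptors, IL20RB (29.7) and the interferon receptor IFNAR1 (15.9) were in shNC only and the chemokine receptor CXCR5 (32.5) in shNAT10 only. Among chaperones, FKBP3 (12.1), DNAJC9 (6.09) and DNAJC10 (5.11) were in shNC only, PPIF (9.86) in shNAT10 only, and the disulphide isomerases PDIA3 (52.5 and 47.0) and PDIA6 (38.8 and 31.0) in both. Of the lysosome and autophagy genes, ATG9A (3.87) and CTSB, the protease cathepsin B (5.66), were in shNC only, and ATG3, which conjugates ATG8 proteins to lipid, had 7.14 in shNC and 14.2 in shNAT10. The ac4C writer group had no site-free peak.

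**Figure D5:**
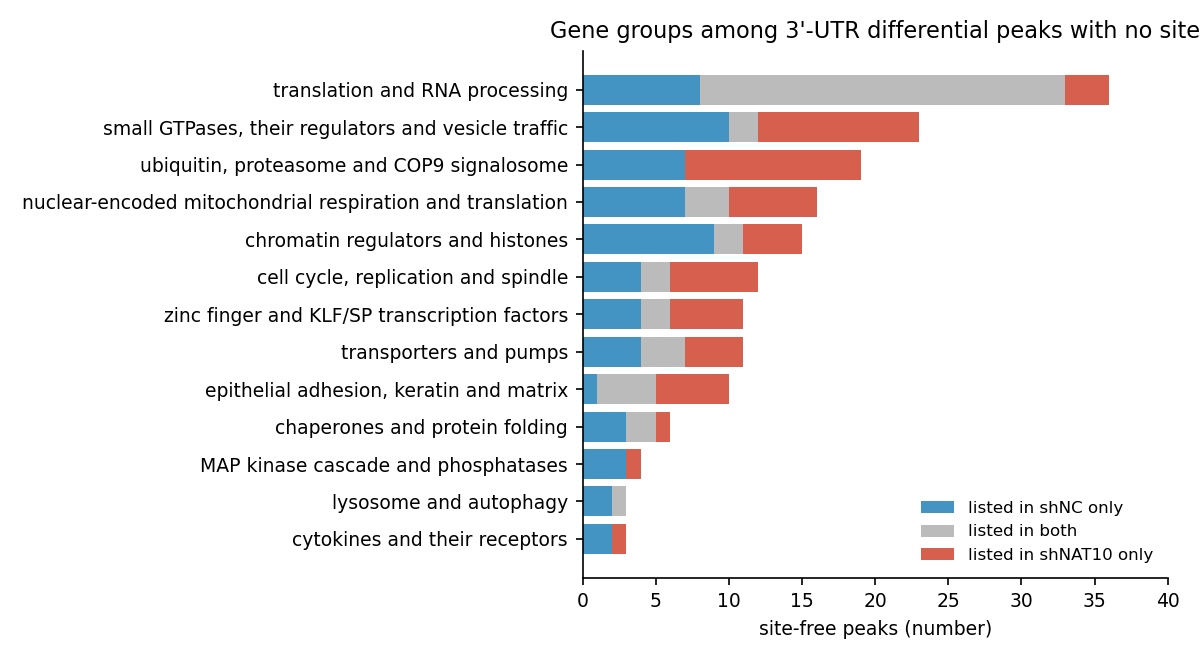
Number of site-free 3'-UTR peaks (x axis) in each of the 13 gene groups with a peak (y axis), split by listing in shNC only (blue), both conditions (grey) and shNAT10 only (red). Translation and RNA processing has 25 of its 36 peaks in both lists, while the 19 peaks of the ubiquitin, proteasome and COP9 group are all in a single list, 7 in shNC and 12 in shNAT10.

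Most genes had a single site-free peak (606 of 643), while 33 had 2 and 4 had 3. Of the 37 genes with several, 19 had peaks in both directions, counting a peak in both lists by the side of its ratio, and 11 had all of them in 1 list, the same one. HLA-E, a non-classical class I molecule on chromosome 6, had a peak in shNC only (2.39), a peak in both (12.4 in shNC and 7.23 in shNAT10) and, nearer to the gene end, a peak in shNAT10 only (2.63). PPP1CB, a catalytic subunit of protein phosphatase 1, had an upstream peak in shNC only (6.13) and downstream peaks in shNAT10 only (9.21 and 9.46). STT3B, a catalytic subunit of oligosaccharyltransferase, had the same order, with 32.5 in shNC only and then 6.04 and 10.5 in shNAT10 only. SRSF3, a splicing factor, had the reverse order, with peaks in both lists that were higher in shNAT10 (6.10 and 9.10, then 7.14 and 18.2) and a downstream peak in shNC only (22.1). CMPK1, a nucleotide kinase, and KCNK6, a potassium channel, also had 1 peak in each list, at 18.6 and 11.4 in shNC only and 18.2 and 24.5 in shNAT10 only. The values of 32.5 for STT3B, 22.1 for SRSF3 and 24.5 for KCNK6 lay on the weakest-p line.

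Of the 643 genes, 37 also had a differential 3'-UTR peak with sites, and 36 had a differential peak in another region. Another gene's differential peak lay over 30 of the site-free peaks (4.39%), and 37 shared a list peak with another site-free peak, so these are not independent counts. The longest site-free peaks after that of PABPC1 were on WAC, an adaptor of histone H2B ubiquitination (660 nt, 50.8 in shNC only), and HNRNPC, a pre-mRNA binding protein (659 nt, 4.33 in shNC and 12.5 in shNAT10).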

How the data were processed

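RNA of FaDu cells was fragmented and precipitated with an ac4C antibody, and IP and input libraries were sequenced in shNC and shNAT10 cells, per the labels with 1 library of each. The submitters' processing notes name cutadapt 2.5, HISAT2 2.1.0, featureCounts 1.6.3, HOMER 4.10.4 and GRCh38, with no role, and the peak caller and the scaling of libraries are not given in the sources used here. The deposited peak lists give a fold enrichment (a linear ratio of IP to input), a p-value, and scores that the authors wrote as log10 of the p-value and FDR. The authors' table of differential peaks adds a log2 change, its p-value and FDR between conditions, which were not used here, and region, gene and site number. Each list was matched to its condition by the prefix it shares with the sample titles. The depth is unknown, because no file gives reads, and intervals on shares count peaks only.

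A differential peak was listed in a condition if exonic blocks on the same chromosome and strand overlapped by at least 1 bp, and the fold enrichment came from the peak with the largest overlap. Single-list and shared peaks were counted with Wilson intervals. Shared peaks higher or lower by at least 2-fold were counted without intervals. Shares on measures the choice did not use directly were compared by Newcombe intervals (95%). No test between conditions was possible without replicates. Of 684 peaks, 667 were matched to the RefSeq table (GRCh38.p14), 643 by symbol and 24 by synonym. The overlap step was tested on simulated data (6403 peaks, 0 wrong). The tools were pandas 2.3.3 and numpy 2.4.6 under Python 3.11.15, with scipy 1.17.1 for intervals and matplotlib 3.10.9 for plots.

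Gene groups were set by symbol patterns, and 9 peaks on symbols that matched a pattern by name only were left out. Genes were named if they were among the 5 highest fold enrichments in either single list, the 5 highest and lowest ratios or the 5 largest sums of -log10 p over both lists, up to 4 of each group in each list class by the p-value of the merged peak (all in groups of up to 5 genes), genes with 3 peaks or with peaks in both directions (up to 5), and the 3 longest peaks or most exonic blocks. The members, groups and rule were chosen with earlier results of these data known. Alternatives were a 50% overlap, a fold enrichment of at least 4, an FDR of at most 1e-10, each gene once, lengths, the choice of list peak, centring and a 1.5-fold limit. Some peaks that the naming rule covers are not reported here.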

Additional observations from a re-analysis of the deposited data

How the results depend on the processing

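Of 79 recomputed values, 13 for all site-free peaks and 3 for gene groups moved, which for a share or median means past its interval and for a count by over 1.5 times. The 3 for groups were the shares in both lists over 250 nt of length, at 86.4% for translation, 50% for mitochondrial and 40% for GTPase and vesicle genes. With an overlap of 50%, the shares in both were also lower by over 1.5 times, within wide intervals, for zinc finger (18.2% to 9.09%), GTPase and vesicle (8.70% to 4.55%) and chromatin genes (13.3% to 6.67%). The share listed in both conditions (23.0%) was 19.2% with an overlap of 50% of both peaks, 19.2% with list peaks of a fold enrichment of at least 4, 19.7% with an FDR of at most 1e-10 (which left 267 of the 684 peaks in neither list), and 27.1% without the peaks on the weakest-p line. Peaks of 150 to 250 nt gave 50.2% in shNC only, 8.22% in both and 41.5% in shNAT10 only, and peaks over 250 nt gave 20.5%, 56.7% and 22.8%. With the same ends in both lists, 3 peaks were lower and 3 higher by at least 2-fold, since 8 of the 157 qualify. The median distance to the gene end was 791 nt from the midpoint of the peak, which adds part of the peak's own length. The alternatives over 250 nt and without the weakest-p line, all those for the distance to the gene end and chromosome 19, and the 50% overlap for gene groups were chosen after seeing the data. Base composition and short motifs of the peaks were not run, because the sequence of the peaks was not analysed here. No paired analysis was possible because no library has a replicate. Without replicates and read counts, a peak in a single list cannot be told apart from a peak that missed the other list's threshold.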

Other observations

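In 4 site-free peaks the gene class was not protein-coding: AL691482.3, which lay over a peak of ELF3, AC020978.8, which lay over a peak of NFATC3, AC021078.1, which lay over a peak of CSNK1A1, and AP000777.3, with a fold enrichment of 26.2 in shNC only. Exonic lengths were multiples of 30 nt within 1 nt in 633 of the 684 site-free peaks (92.5%). The share was close to this in peaks with 1 site (313 of 350, 89.4%) and lower in peaks with 2 or more sites (412 of 541, 76.2%). In the shNC list 44.6% of peaks, and in the shNAT10 list 47.0%, had exactly the fold enrichment and p-value of a peak on another gene. MSX1 on chromosome 4 and PDXP on chromosome 22, for example, both had 241 with a -log10 p of 75.1 in shNAT10.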
